A study of Clytia hemisphaerica and Astroides calycularis and Pocillopora acuta with 16 samples.

Results

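A set of 5 gene models of cnidarian planulae, the ciliated swimming larvae whose leading pole at settlement is often the aboral one, was followed along the larval axis. They were the consecutively numbered Astroides models STRG.11001 and STRG.11002, both annotated with an F5/8 type C domain, their Pocillopora orthologs XP_027051510.1 and XP_027051554.1, and the Clytia ortholog XLOC_031271. The 5, of 67007 models in the deposited files of the 3 species, were chosen by identifier. STRG.11001, STRG.11002 and XP_027051510.1 had been noticed for high aboral counts, so their aboral and oral values are a description without a test. XP_027051554.1 and XLOC_031271 entered only as listed orthologs and were tested. XP_027051554.1 passed the filter on low counts only through its aboral libraries, so its p between the ends is read as a description. The study's lists paired STRG.11001 with XP_027051510.1, and STRG.11002 with both XP_027051554.1 and XLOC_031271. They gave the domain for STRG.11001, STRG.11002 and XP_027051510.1, and for XP_027051554.1 and XLOC_031271 only the orthology.

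The F5/8 type C domain, also called the discoidin domain, is named after blood coagulation factors of vertebrates, in which it binds phospholipid membranes. In other animal proteins it occurs in secreted and membrane-bound proteins and binds carbohydrates or other surface ligands. What the proteins of these cnidarian models do is not known from the sources used here.

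Bulk RNA-seq was performed on pooled material in 16 libraries, 2 in each of 8 groups. For the hydrozoan Clytia hemisphaerica and the coral Astroides calycularis these were aboral ends of bisected planulae, oral ends and uncut planulae. For the coral Pocillopora acuta they were aboral and oral ends of larvae released by the parent colonies C5 and C3, which per the study's methods share a genotype, and colony cannot be told apart from replicate. Astroides larvae were released by wild colonies, Pocillopora larvae carried algal symbionts, and the labels give no treatment or genetic alteration for any group. Per the methods, the Pocillopora libraries pooled the fewest cut ends, only a few in each, with fewer oral than aboral ends in both replicates. Counting intervals do not cover the spread between such small pools. A Clytia library held between 30129270 and 31043438 counts, an Astroides library between 23146999 and 26980344, and a Pocillopora library between 20256336 and 24838448. Levels are given in CPM, a count relative to all counts of its library, with 95% exact Poisson intervals that cover counting error only. The models' lengths were not used here, so levels were compared between libraries and not between genes.

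The ends were checked against the study's marker lists of aboral cell types, which the study chose with the help of these libraries, so their counts are not independent evidence of a direction. Of the 28 apical cell markers listed for Astroides, 25 were higher in aboral ends, where 3.47% of all genes were, and their summed level ran from 3920 to 5076 CPM in aboral and from 821 to 947 CPM in oral ends, with 1 of the 28 at 0 in oral ends. In Pocillopora 18 of 24 apical markers were higher in aboral ends, where 3.82% of all genes were, with sums of 5924 to 7516 CPM in aboral and 2418 to 3695 CPM in oral ends, and 2 markers were at 0 in oral ends. Of the gland mucous markers, 30 of 37 were higher in aboral ends of Astroides and 31 of 40 in those of Pocillopora. For the first neurosecretory type these were 16 of 19 and 16 of 28, and for the second 5 of 7 and 5 of 24. The GLWamide neuron lists were weaker, with 4 of 18 markers higher in aboral ends of Astroides and 5 of 15 in those of Pocillopora. Of 21 markers of other cell classes, 2 were higher and 4 lower in aboral ends of Astroides (3.47% and 3.51% of all genes), and 1 was higher and 5 lower in those of Pocillopora (3.82% and 4.22%). In Clytia all 18 neurosecretory markers were higher in aboral ends, where 18.4% of all genes were, at sums of 5010 to 5700 CPM in aboral and 33.1 to 38.0 CPM in oral ends. In pooled tissue, fewer cells of a type and less RNA per cell cannot be told apart.

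In both corals the members were almost entirely aboral transcripts. STRG.11002 had 435 and 750 counts in the aboral ends of Astroides, or 16.1 and 27.8 CPM, against 3 and 0 counts in the oral ends. Uncut planulae lay between the ends, with 162 and 303 counts, or 6.999 and 12.01 CPM. The pooled aboral level was 372 times the oral level, with a counting interval of 127 to 1805 that is wide because only 3 oral reads stood against 1185 aboral reads. In replicate 2, where the oral library held no read, the aboral level was 249.7 times a floor of 3 counts per library. The counting interval of aboral over oral there began at 202.6. The aboral share of the summed aboral and oral CPM was 99.7%.

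STRG.11001 was the less counted model of the Astroides pair. It had 72 and 132 counts in aboral ends, or 2.67 and 4.90 CPM, against 0 and 5 counts in oral ends. Uncut planulae held 33 and 52 counts, or 1.43 and 2.06 CPM. The aboral level was 38.4 times the oral level over both replicates (counting interval 16.2 to 119.5). In replicate 1, with no oral read, it was 21.2 times the floor (counting interval of aboral over oral from 16.8). For both models both aboral libraries lay above both oral libraries, as in 20.2% of all Astroides genes tested. Uncut planulae, which hold both ends, lay between them.

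The Pocillopora orthologs were counted mostly at the same end. XP_027051510.1 had 206 counts in C5 and 67 in C3 aboral ends, or 8.82 and 2.697 CPM, against 10 and 0 counts in C5 and C3 oral ends. The aboral level was 23.8 times the oral level (counting interval 12.7 to 50.1). In colony C3 it was 18.2 times the floor (counting interval of aboral over oral from 14.4). The aboral share was 96.0%, against 97.5% for its Astroides partner STRG.11001.

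XP_027051554.1, the ortholog of STRG.11002, had 37 counts in C5 and 61 in C3 aboral ends, or 1.59 and 2.46 CPM. Its oral ends held 0 counts in C5 and 1 in C3. It rose in aboral ends by 6.11 ± 0.80 on the log2 scale (SE; 95% interval 4.08 to 8.15; adjusted p = 0.0210, edgeR quasi-likelihood test with the parent colony in the model, higher in both colonies). Of the 17164 genes tested in Pocillopora, 8.05% were called, with 3.82% of all genes higher in aboral and 4.22% higher in oral ends. It passed the filter on low counts only through its aboral libraries. The filtered test thus favoured a gene higher in aboral ends, and its p is read as a description. With no filter edgeR gave an adjusted p of 0.00831. The call was lost without the colony in the model (adjusted p = 0.331), a fit that called 0 genes in all, and a single oral read carried the oral level. DESeq2 gave a log2 change of 6.45 (adjusted p = 0.00311).

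**Figure D1:**
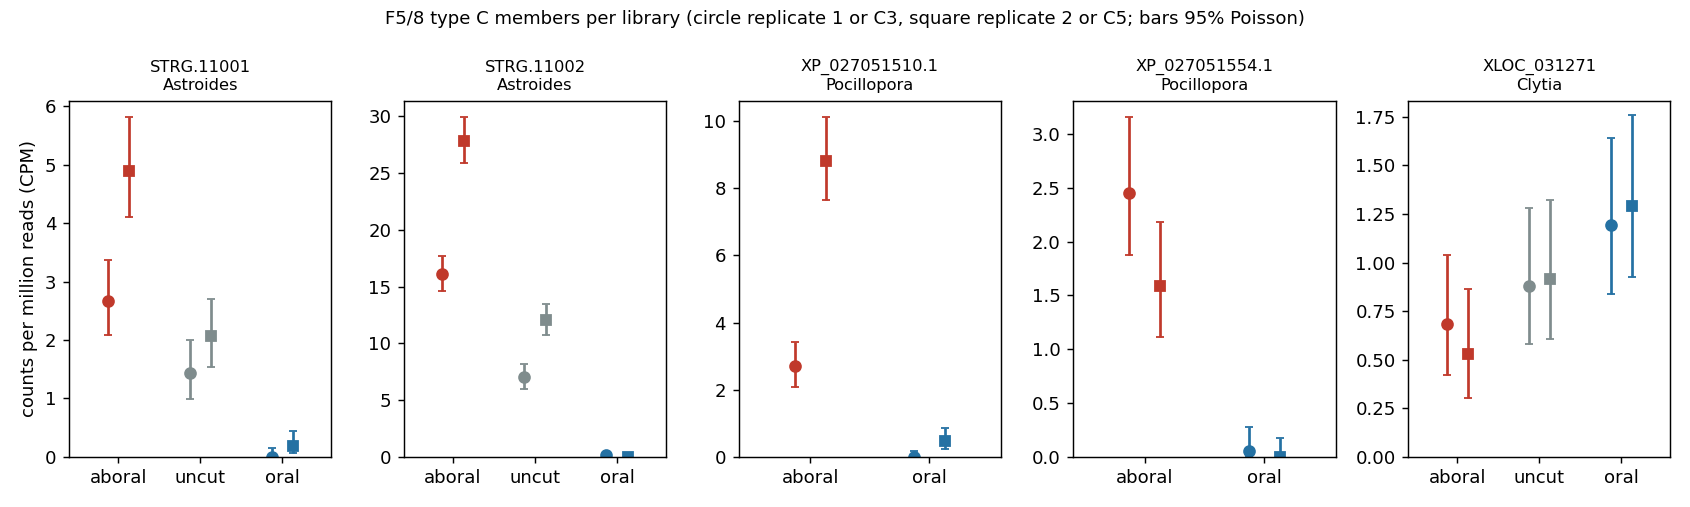
CPM (vertical axis, linear, a scale of its own in each panel) of the 5 members in each library, with 95% Poisson intervals; circles are replicate 1 or colony C3 and squares replicate 2 or colony C5. The 4 coral members are high in aboral and near 0 in oral ends, while XLOC_031271 of Clytia is lowest in aboral ends.

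The Clytia ortholog had the opposite order of ends. XLOC_031271 had 21 and 16 counts in aboral ends, or 0.681 and 0.531 CPM, against 37 and 40 counts in oral ends, or 1.19 and 1.29 CPM. Uncut planulae, which hold both ends, lay between them with 27 and 28 counts, or 0.880 and 0.913 CPM. The level in aboral ends fell by 0.98 on the log2 scale relative to oral ends (SE 0.27; 95% interval of the change -1.62 to -0.35; adjusted p = 0.0258, edgeR), in both replicates. Of the 15599 genes tested in Clytia, 33.2% were called, with 18.4% higher in aboral and 14.8% higher in oral ends. Both aboral libraries lay below both oral libraries in 37.1% of genes and above them in 30.2%, so neither the call nor the separation of the ends is rare in Clytia. The call rests on 37 aboral and 77 oral reads. DESeq2 did not call it (adjusted p = 0.124), nor did edgeR without either aboral library (adjusted p = 0.0614 without replicate 1 and 0.149 without replicate 2) or without either oral library (0.0776 without replicate 1 and 0.104 without replicate 2). With the replicate number as a block the adjusted p was 0.0156. The fitted intervals of XLOC_031271 and XP_027051554.1 did not overlap. The latter rests on a single oral read and is narrower than its counting interval. The difference between species was not tested.

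On the fitted scale the Astroides members had aboral over oral log2 changes of 8.44 for STRG.11002 and 5.24 for STRG.11001, and XP_027051510.1 one of 4.78. These fitted values depend on the prior count, since an oral library of each model held no read. All 5 members passed the filter on low counts, but the 4 coral members did so without their oral libraries, whereas XLOC_031271 reached the minimum of 0.325 CPM in all 3 groups. In Astroides 6.99% of 21254 genes were called, with 3.47% higher in aboral and 3.51% higher in oral ends. Both aboral libraries lay above both oral libraries in 20.2% of genes and below them in 23.4%, and in Pocillopora these shares were 18% and 19.4%. As the members were chosen on this contrast, nothing is read from their place in these shares.

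Uncut planulae were set against both ends of the same replicate, joined by summing their counts, a comparison that played no part in the choice of the members. No member passed the threshold. The log2 difference, uncut over joined, was -0.23 for STRG.11002 (95% interval -1.08 to 0.62), -0.17 for STRG.11001 (-1.15 to 0.82) and -0.04 for XLOC_031271 (-0.62 to 0.55), with edgeR adjusted p from 0.998 to 0.999. The percentage of genes called was 0 in both species, where 347 genes in Clytia and 730 in Astroides had an unadjusted p under 0.05 and DESeq2 called 32 and 38. With the replicate number as a block, edgeR called 76 genes in Clytia and 0 in Astroides, none of them a member. The intervals of both Astroides models still allow a change of either sign.

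In CPM, uncut planulae held 0.862 times the mean of both ends for STRG.11002, and this was 0.861 in replicate 1 and 0.863 in replicate 2. For STRG.11001 the value was 0.900, at 1.07 and 0.811 in the replicates, and for XLOC_031271 it was 0.970. These ratios weigh both ends equally and carry no counting interval. The uncut level of STRG.11002 in replicate 1 alone had a Poisson interval of 5.96 to 8.16 CPM. On a scale with the oral level at 0 and the aboral level at 1, uncut planulae stood at 0.431 for STRG.11002, 0.447 for STRG.11001 and 0.544 for XLOC_031271.

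**Figure D2:**
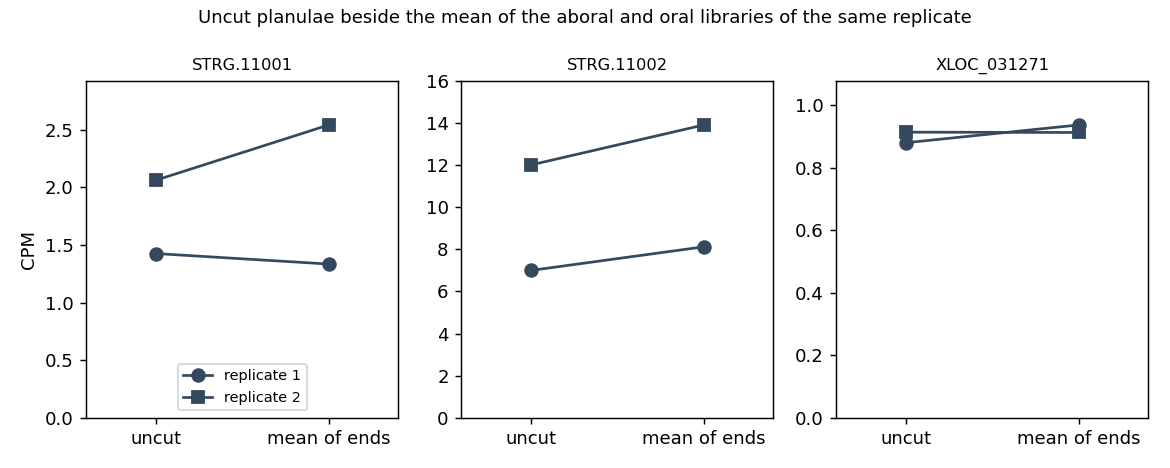
CPM (linear axis from 0) in uncut planulae and as the mean of the aboral and oral libraries of the same replicate, joined by a line for each replicate. For STRG.11002 uncut planulae stand at 0.861 and 0.863 times the mean of the ends, and the 2 replicates lie further apart than that.

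In aboral ends and uncut planulae, both Astroides models were higher in replicate 2. STRG.11002 in replicate 2 was 1.73 times its level in replicate 1 in aboral ends (counting interval 1.53 to 1.95) and 1.72 times in uncut planulae (1.41 to 2.09). STRG.11001 was 1.84 times (1.37 to 2.48) and 1.45 times (0.917 to 2.31). Reads of STRG.11002 per read of STRG.11001 numbered 6.04 and 5.68 in aboral ends and 4.91 and 5.83 in uncut planulae, with overlapping intervals. The few oral reads were split otherwise, with 3 of STRG.11002 and 0 of STRG.11001 in replicate 1, and 0 and 5 in replicate 2, where the interval of the ratio reached only 1.09. Summed apical markers were 1.29 times as high in replicate 2 of the aboral ends and 1.17 times in uncut planulae, and gland mucous markers 1.06 and 1.11 times. Their part in the members' replicate difference was not tested.

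In the Pocillopora pair the aboral counts of the colonies differed in opposite directions, beyond counting error. In aboral ends XP_027051510.1 was 3.27 times as high in C5 as in C3 (counting interval 2.47 to 4.38), whereas XP_027051554.1 was 0.645 times as high (0.417 to 0.987). Reads of XP_027051510.1 per read of XP_027051554.1 were 5.57 in C5 (3.91 to 8.13) and 1.10 in C3 (0.765 to 1.58), so these intervals did not overlap, but with 1 library behind each they hold no spread between pools, and the difference between the genes was not tested. In the fit over both ends, XP_027051510.1 differed by 1.94 ± 0.56 (SE; 95% interval 0.50 to 3.38) and did not pass the threshold (edgeR adjusted p = 0.0716), although it did with DESeq2 (0.0469) and without the filter on low counts (0.0495). XP_027051554.1 differed by -0.79 ± 0.59 (-2.30 to 0.72; adjusted p = 0.387), and the intervals of both models overlapped. Of all genes, 19.2% were called between colonies, with 9.35% higher in C5 and 9.89% higher in C3. Both ends of a colony stood in for its replicates in this fit, so its p-values hold no spread between pools of a colony.

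Gland mucous markers summed to 10515 CPM in C5 and 4560 CPM in C3 aboral ends, with 9 of 40 higher and 2 lower in C5. Markers of the second neurosecretory type had 5 of 24 higher and 1 lower, and both specialized epidermis markers were higher in C5. Apical markers summed to 7516 and 5924 CPM in C5 and C3 aboral ends with 2 of 24 higher, a share near the 9.35% of all genes. Of the GLWamide and first neurosecretory markers, 0 of 15 and 0 of 28 were higher in C5 and 1 of each was lower. Their part in the difference between the 2 members was not tested.

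**Figure D3:**
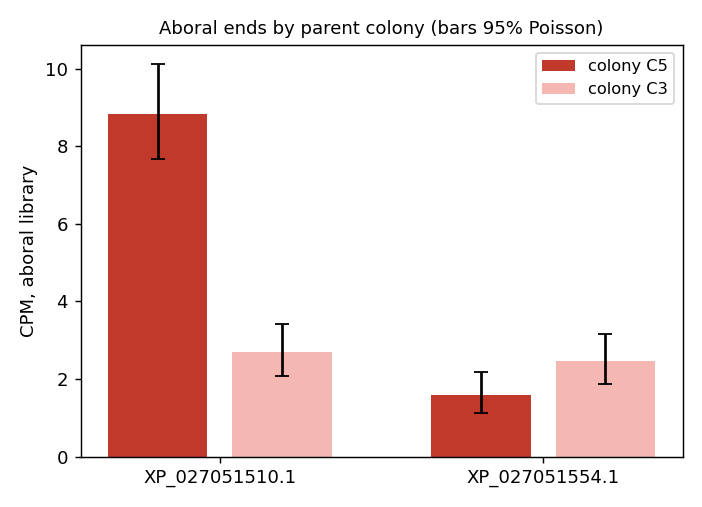
CPM in the aboral library of colonies C5 and C3 (bars from 0, with 95% Poisson intervals, 1 library each) for both Pocillopora members. XP_027051510.1 stands at 8.82 in C5 and 2.697 in C3, and XP_027051554.1 at 1.59 in C5 and 2.46 in C3.

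The other genes with the domain in the study's lists were examined beside the members. These 21 genes were listed partly because of these libraries, so their counts are not independent evidence of a direction. In Astroides 4 of 8 rose in aboral ends and 3 fell (median log2 change 0.70, against 0.00 over all genes; 3.47% of all genes rose and 3.51% fell). STRG.25668, a spondin-like glycoprotein with thrombospondin and von Willebrand type A domains, stood at 1455 ± 264 CPM in aboral and 194 ± 23.0 CPM in oral ends (SD, n = 2; log2 change 2.94; edgeR adjusted p = 0.00140). STRG.9598, with trypsin and EGF-like domains, changed by 2.93 at low levels of 1.67 ± 0.107 CPM in aboral and 0.221 ± 0.103 CPM in oral ends. STRG.7877, with von Willebrand type A domains, changed by 2.38. The largest fall in the Astroides list was that of STRG.8566, with thrombospondin domains, at 1.80 ± 0.133 CPM in aboral and 31.3 ± 14.6 CPM in oral ends (log2 change -4.08; edgeR adjusted p = 0.00238). STRG.25948 changed by -1.996 and STRG.34730, which also has a tyrosinase domain, by -1.73.

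In Pocillopora 6 of the 7 other genes rose in aboral ends and 0 fell with edgeR (0 at an unadjusted p under 0.05, and 0 with DESeq2), at a median log2 change of 2.26 against -0.03 over all genes, of which 3.82% rose and 4.22% fell. Without the colony in the model 0 were called. XP_027045544.1, the ortholog of STRG.25668, stood at 876 ± 228 CPM in aboral and 80.2 ± 61.6 CPM in oral ends (log2 change 3.68; edgeR adjusted p = 0.00905). XP_027054391.1, with MAM and CUB domains, changed by 3.43. XP_027058973.1 and XP_027058959.1, whose annotation includes a rhodopsin-family receptor domain, changed by 2.96 and 1.96. XP_027051883.1, with EF-hand domains, changed by 1.996.

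In Clytia 3 of 6 rose in aboral ends and 1 fell (median log2 change 0.13, against -0.01 over all genes, of which 18.4% rose and 14.8% fell), and with the replicate number as a block 3 fell. XLOC_008415, a metalloprotease of the ADAM type, stood at 190 ± 14.6 CPM in aboral and 17.4 ± 1.46 CPM in oral ends (log2 change 3.49; edgeR adjusted p = 1.57e-07). XLOC_008961, which shares its metalloprotease domain and lists a disintegrin domain, went the other way, at 158 ± 10.4 CPM in aboral and 286 ± 21.4 CPM in oral ends (log2 change -0.81; edgeR adjusted p = 6.07e-04). XLOC_031665 changed by 0.51 and XLOC_005440 by 1.32. Its listed orthologs STRG.10749 in Astroides and XP_027042500.1 in Pocillopora also rose, by 1.32 and 1.89. One of the study's lists gives XLOC_005440 repeated F5/8 type C domains and another names it ALK-like.

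**Figure D4:**
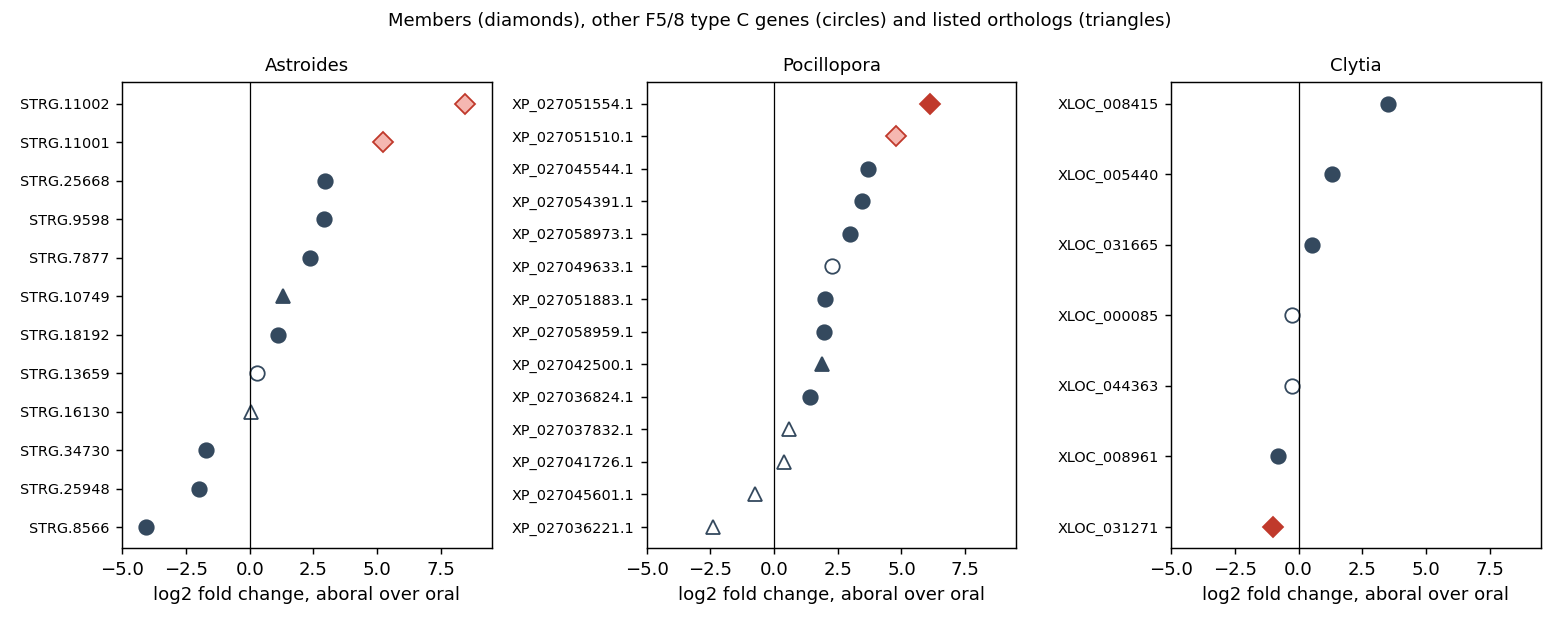
Aboral over oral log2 fold change (horizontal axis) of the members (diamonds), the other genes with the domain (circles) and their listed orthologs (triangles) in each species; filled symbols passed the edgeR threshold, open ones did not, and pale diamonds were not tested. The members reach 8.44 in Astroides and 6.11 in Pocillopora, while XLOC_031271 lies at -0.98. The filled diamond of XP_027051554.1 is read as a description, since it passed the filter on low counts only through its aboral libraries.

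Between colonies, 0 of the 7 other Pocillopora genes were called by edgeR (1 at an unadjusted p under 0.05, and 1 by DESeq2). In uncut planulae against joined ends, 0 of 6 were called in Clytia and 0 of 8 in Astroides (1 and 0 at an unadjusted p under 0.05, and 0 and 0 by DESeq2).

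The models numbered next to the members were looked up, although a number is not a position. STRG.11000 had 10 and 31 counts in aboral ends against 0 and 1 in oral ends, with 5 and 7 in uncut planulae. Its aboral level was 38.6 times the oral level with a counting interval of 6.55 to 1561, and its counts were too low for the test. STRG.11004 rose by 0.84 in aboral ends (edgeR adjusted p = 0.0128), and STRG.10996, STRG.10998, STRG.11003 and STRG.11005 were not called, with log2 differences of 0.10, 0.17, 0.12 and -0.32. No tested neighbour of the Pocillopora members was called, with log2 differences from -0.17 for XP_027051511.1 to 0.45 for XP_027051507.1 beside XP_027051510.1, and from -0.18 for XP_027051556.1 to 0.16 for XP_027051551.1 beside XP_027051554.1. Around XLOC_031271, 3 of 6 models rose in aboral ends, where 18.4% of all Clytia genes did: XLOC_031270 by 0.92, XLOC_031269 by 0.96 and XLOC_031277 by 0.35 (edgeR adjusted p = 0.00284, 0.00171 and 0.0130). XLOC_031272, XLOC_031273 and XLOC_031268 had differences of -0.33, -0.38 and -0.0034 and were not called (edgeR adjusted p = 0.0596, 0.115 and 0.994).

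The genes with the nearest profiles were found by the root mean square difference of centred log2(CPM + 1) over the libraries of a species. Over 6 Astroides libraries STRG.11002 was nearest to STRG.10357 (0.21), to STRG.8628 (0.23), with a carbohydrate binding domain, to the T-box gene STRG.4110 (0.24), an apical marker, and to STRG.13484 (0.27), with a pentaxin domain. STRG.11001 was nearest to STRG.39359 (0.12), with an amiloride-sensitive sodium channel domain, to the gland mucous marker STRG.17560 (0.13), to STRG.2744 (0.14), with ankyrin repeats, and to STRG.7543 (0.14), with a rhodopsin-family receptor domain. Over 4 Pocillopora libraries XP_027051510.1 was nearest to XP_027052747.1 (0.07), with an EGF-like domain, to the apical marker XP_027057412.1 (0.13), an oxidase-like gene, and to XP_027042103.1 (0.18), with a TGF-beta-like domain. XP_027051554.1 was nearest to XP_027042920.1 (0.04), XP_027053144.1 (0.08) and XP_027037010.1 (0.09). Among annotated genes it was nearest to the cytochrome P450 gene XP_027054471.1 (0.11), a marker of the first neurosecretory type, to the gland mucous marker XP_027049413.1 (0.13) and to XP_027051623.1 (0.15), with von Willebrand type A domains. Over 6 Clytia libraries XLOC_031271 was nearest to XLOC_038277, XLOC_041942 and XLOC_004900 (each 0.03), which carried no annotation. Among annotated genes it was nearest to XLOC_044363 (0.12), XLOC_000085 (0.15) and XLOC_008961 (0.18), all of the list with the F5/8 type C domain. These lay further away than the genes without annotation, so the shared domain is not read as a result. These genes depended on the pseudocount: with 0.5 in place of 1, 0 of 4 were kept for STRG.11001, 1 of 4 for STRG.11002, 2 of 3 for XP_027051510.1, 1 of 6 for XP_027051554.1 and 3 of 6 for XLOC_031271. The pseudocount also shrinks the change of a member with few reads, so a near gene can have a much smaller ratio of ends. STRG.39359 stood at 67.0 CPM in aboral and 14.7 CPM in oral ends, and XP_027042920.1 at 6.57 and 1.62 CPM. STRG.8628, near STRG.11002, stood at 20.7 and 0.135 CPM.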

How the data were processed

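Total RNA of pooled ends or uncut planulae was sequenced as paired-end libraries. The authors mapped the reads with STAR and deposited its raw counts, with 1 file for each library. The Pocillopora reads were mapped to the genome of Pocillopora damicornis, and the strand setting was not given in the sources used here. Reads in overlapping models could therefore be assigned differently. How reads shared between near-identical models were counted was not examined here.

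Counts were tested per species in R 4.3.3 with edgeR 4.0.16 (filterByExpr, TMM, quasi-likelihood F test in legacy mode, two-sided), with Benjamini-Hochberg adjustment over all genes tested and a threshold of 0.05. Clytia and Astroides fits held 6 libraries, and Pocillopora fits 4 with colony or end as covariate, which left 1 residual degree of freedom. For uncut planulae, aboral and oral counts of a replicate were summed, because a mean of log2 values understates the joined level of a gene near 0 at an end. DESeq2 1.42.0 was an alternative. The procedure was tested on simulated data. In Clytia and Astroides replicates were separate pools, so p-values between ends and for uncut planulae measure the spread between pools. In Pocillopora each colony gave 1 library per end. The p-values between its ends rest on how far the end difference varied between colonies and on spread borrowed from other genes. In the colony fits the ends of a colony stood in for replicates, so those p-values do not measure the spread between pools.

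No replicate term was in the Clytia and Astroides fits. Same-numbered libraries there count as paired, since the methods list the material of all parts by biological replicate, and the replicate number as a block was an alternative. Replicate differences correlated between groups at r = 0.260 to 0.398 in Clytia and 0.1997 to 0.643 in Astroides.

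The members and lists were chosen with earlier results of these data known. The text names all members, called genes of the domain list and its orthologs (up to 6 per species by size, and STRG.10749 as a partner of XLOC_005440) and the 3 nearest profiles, of any and of annotated genes, with a mean of at least 1 CPM. The 3 numbered models on either side of a member are named in Astroides and Clytia and given as a range in Pocillopora. Of the 5 member identifiers, 0 matched the reference gene table, and no sequences were used here.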

Additional observations from a re-analysis of the deposited data

Results flagged for a closer look

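In groups of 2 libraries no single library could be set apart from the rest. Of 13 listed ortholog pairs, 3 had aboral over oral differences of opposite sign in every replicate or colony, which in both Pocillopora genes below were not called. The difference between species was not tested for any of them. XLOC_031271 of Clytia changed by -0.98 (log2, aboral over oral) and was lower in aboral ends in both replicates, whereas its ortholog STRG.11002 of Astroides was higher in both, at 8.44. XP_027045601.1 of Pocillopora had a difference of -0.77 (edgeR adjusted p = 0.191), at 10.3 CPM in C5 and 1.65 CPM in C3 aboral ends against 13.8 and 3.999 CPM in C5 and C3 oral ends, whereas its ortholog STRG.7877 of Astroides changed by 2.38. XP_027037832.1 of Pocillopora had a difference of 0.59 (edgeR adjusted p = 0.295), whereas its ortholog XLOC_008961 of Clytia changed by -0.81. Both of these Pocillopora genes were higher in C5 than in C3, by 2.08 and 1.55 on the log2 scale (edgeR adjusted p = 0.0151 and 0.0307).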

How the results depend on the processing

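RLE size factors changed no call of a member. DESeq2 gave XLOC_031271 a change of -0.99 (adjusted p = 0.124) and XP_027051510.1 a colony difference of 2.32 (adjusted p = 0.0469), and without the filter on low counts XP_027051510.1 stood at 1.94 (adjusted p = 0.0495). Without colony in the model (no replicate block), XP_027051554.1 stood at 6.10 (adjusted p = 0.331), and 0 of the other F5/8 type C genes of Pocillopora were higher in aboral ends. In Clytia 3 of these genes were higher in oral ends with the replicate block and 2 with DESeq2, in place of 1. The replicate block changed no other call of a member. It gave 2611 calls in place of 1485 between the ends in Astroides, and 76 in place of 0 for uncut planulae in Clytia.

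With the ends averaged as log2 coefficients in place of summed counts, uncut planulae gave 0.046 for XLOC_031271, 1.5003 for STRG.11001 and 3.01 for STRG.11002 (adjusted p = 0.999, 0.774 and 0.136), opposite in sign to the joined ends. By construction this mean lies far below the mean of the counts for a gene near 0 at an end. It called 186 genes in Clytia and 47 in Astroides.

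When libraries or replicates were left out in turn, the aboral over oral change ran from 4.35 to 9.58 for STRG.11001, from 7.40 to 12.2 for STRG.11002, from 4.29 to 8.96 for XP_027051510.1, from 5.46 to 8.14 for XP_027051554.1 and from -1.17 to -0.82 for XLOC_031271. For the coral members the highest value came where the remaining oral library held no read. Uncut against joined ends ran from -0.51 to 0.29, -0.69 to 0.14 and -0.11 to 0.034 for STRG.11001, STRG.11002 and XLOC_031271; leaving out single libraries there was added after seeing the data. C5 against C3 ran from 1.65 to 6.32 for XP_027051510.1 and from -3.37 to -0.69 for XP_027051554.1. Calls between the ends in Astroides numbered 520 to 1099 without 1 library. Depth limits the oral levels, where 0 to 10 reads were counted per coral library.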
